A study of Homo sapiens with 16 samples.

Results

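The integrated stress response and the cytosolic aminoacyl-tRNA synthetase genes it is known to control were followed as a set of 32 named genes, of which 31 matched a row by symbol among the 20612 genes of the expression table. VLDLR, the remaining name, was not analysed here. The cells were HCT116, a human colorectal carcinoma line labelled p53+/+, and its derivative labelled p53-/-. Each line received for 8 h the combination of Nutlin-3A with Entinostat, 5 µM Nutlin-3A alone, 2.5 µM Entinostat alone, or DMSO, the solvent. Nutlin-3A blocks the binding of MDM2 to p53 and so stabilises p53, and Entinostat inhibits class I histone deacetylases. The doses used within the combination were not labelled separately. With 2 replicates in each of the 8 groups there were 16 libraries of polyadenylated RNA. The p53-/- line is a single derivative, so an effect of p53 loss and any other difference of that line cannot be told apart. No label says that replicates came from separate cultures, so the p values cover only the scatter among these samples, and that scatter may be technical.

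In the integrated stress response, the kinases PERK, GCN2, PKR and HRI phosphorylate the translation initiation factor eIF2, which slows protein synthesis while raising translation of the ATF4 mRNA. ATF4 protein, paired with C/EBP family proteins, binds C/EBP-ATF response elements and activates genes for amino acid synthesis, amino acid import, tRNA charging, and feedback on the pathway. Because ATF4 is controlled largely at translation, its mRNA level need not follow the activity of its protein, which these libraries do not measure.

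The element that names this gene set can be read in the start-site regions of several members. RefSeq windows from 250 bases before to 50 bases after the annotated start (GRCh38.p14, whereas the expression table was made on hg19) were used for 24 of the 31 members, 9 of them found through an older symbol. ATF3 and AARS were among the members whose windows were not used. Each gene was given 1 window, the first listed. The core of the C/EBP-ATF response element, TGATGNAA on either strand, was present in 8 of the 24 windows (33.3%), against 311 of 14930 windows (2.08%) over the genes of the table. Over all 38 listed windows of these 24 members, 10 members had the core in at least 1, a count not made for all genes. The palindromic cAMP response element, TGACGTCA, which shares its first 3 letters with the core and differs at the fourth, was present in 1 of the 24 (4.17%), the window of PPP1R15A, against 2.79% of all windows. The first 280 bases of the window are shown for 4 genes whose mRNA changed with the drugs, so that those with the core can be compared with SARS, which lacks it and which rose with the combination in p53+/+ cells, where the others shown fell. Capitals mark the 8 bases that match the core. The regions are IARS at chr9:92293668-92293947 on the minus strand, MARS at chr12:57487818-57488097 on the plus strand, TARS at chr5:33440715-33440994 on the plus strand, and SARS at chr1:109213643-109213922 on the plus strand.
IARS: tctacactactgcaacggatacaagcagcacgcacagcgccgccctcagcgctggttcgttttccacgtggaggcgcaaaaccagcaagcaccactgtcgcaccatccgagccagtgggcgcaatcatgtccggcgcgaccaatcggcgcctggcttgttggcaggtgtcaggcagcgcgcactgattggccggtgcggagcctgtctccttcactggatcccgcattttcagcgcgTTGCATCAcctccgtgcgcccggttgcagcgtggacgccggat
MARS: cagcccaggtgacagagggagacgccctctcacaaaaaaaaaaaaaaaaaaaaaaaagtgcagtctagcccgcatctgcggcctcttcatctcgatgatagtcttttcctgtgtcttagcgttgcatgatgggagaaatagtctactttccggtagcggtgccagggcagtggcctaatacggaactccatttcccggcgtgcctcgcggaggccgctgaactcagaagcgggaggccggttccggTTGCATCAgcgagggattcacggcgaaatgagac
TARS: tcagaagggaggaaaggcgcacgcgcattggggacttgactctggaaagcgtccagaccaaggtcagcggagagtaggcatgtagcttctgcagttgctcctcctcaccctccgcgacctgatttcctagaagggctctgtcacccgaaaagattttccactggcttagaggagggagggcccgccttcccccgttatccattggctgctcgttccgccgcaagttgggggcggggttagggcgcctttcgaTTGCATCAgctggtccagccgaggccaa
SARS: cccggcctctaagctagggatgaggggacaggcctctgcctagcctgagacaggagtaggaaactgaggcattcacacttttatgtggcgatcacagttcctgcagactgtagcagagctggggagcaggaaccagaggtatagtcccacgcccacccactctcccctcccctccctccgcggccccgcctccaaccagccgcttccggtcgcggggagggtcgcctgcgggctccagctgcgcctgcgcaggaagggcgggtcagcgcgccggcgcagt
The core lay near the start in IARS, MARS and TARS. It was also found in CHAC1, PPP1R15B, ASNS, CARS and NARS. A match is a description of these letters and does not show binding.

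**Figure D1:**
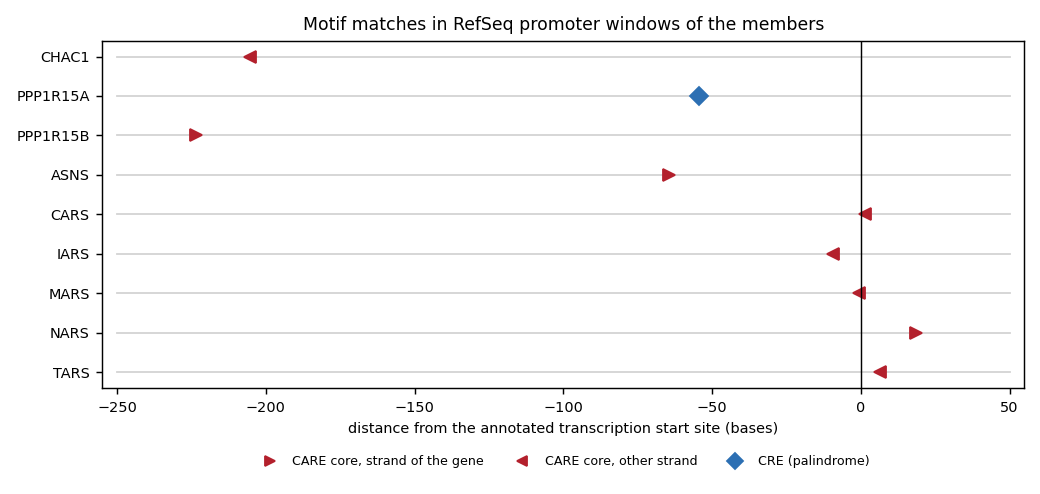
Position of the matches to the C/EBP-ATF response element core and to the cAMP response element in the RefSeq promoter windows of the members, in bases from the annotated transcription start site, with arrows for the strand. The core lies within 13 bases of the start in IARS, MARS, CARS and TARS, and 209 bases or more before it in CHAC1 and PPP1R15B.

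Levels are RPKM, which divide reads by the length of the gene and the size of the library, and libraries held 45902800 to 55507300 alignments. Changes are differences of log2(RPKM + 0.5), which understate the change of low genes, and folds are ratios of mean RPKM. A gene was tested when its mean over the 16 libraries reached 0.5 RPKM, which kept 12466 genes and 29 members, and it was called at a limma adjusted p under 0.05 over all tested genes. CBS and ALDH1L2 fell below the filter. The epithelial genes EPCAM (126 to 191 RPKM), KRT8 and KRT18 were high in all 16 libraries, whereas the intestinal genes VIL1, CDX1 and LGR5 were at 0.129 RPKM or lower. Of the 11 markers of blood, stromal, endothelial and liver cells with a row, COL1A1 reached 2 to 5.8 RPKM and the other 10 stayed at or below 0.238 RPKM. Replicates correlated at r of 0.984 to 0.994 across genes, and no 2 libraries were identical.

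In p53+/+ cells each drug lowered synthetase genes and CEBPG and raised ATF3, and the combination moved most of the set. The combination against DMSO raised 4 members and lowered 14 of 29 (62.1%), while 50% of all tested genes were called. Nutlin-3A raised 3 members (ATF3, CTH and SARS) and lowered 4 (CEBPG, AARS, MARS and YARS), with 17.4% of all genes called. Entinostat raised ATF3 and PPP1R15B and lowered CEBPG, TRIB3, PSAT1, STC2, AARS, MARS and YARS, with 27.5% of all genes called. The median member changed by -0.24 on the log2 scale with the combination, -0.14 with Nutlin-3A and -0.13 with Entinostat, against medians over all genes of -0.03, -0.02 and 0.01. RPKM is a share of the library, so a lower value cannot be told apart from a rise of other transcripts, and fewer cells of a kind cannot be told apart from less RNA per cell.

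When the model also held the replicate number as a block, the p53+/+ count was 24 of 29 for the combination (64% of all genes). It was 13 of 29 for Nutlin-3A (31.5% of all genes) and 18 of 29 for Entinostat (44.6% of all genes). Nutlin-3A calls numbered 3 without any 1 of its 4 libraries, and ATF3 and CEBPG were the 2 called in every case. Entinostat calls numbered 3 without Entinostat replicate 1 and 3 without DMSO replicate 1, and TRIB3, STC2 and YARS were called with each library left out. In the combination comparison 12 of the 18 calls were made with each of the 4 libraries left out, and those of PSPH, CARS, GARS, IARS, LARS and SARS were lost without at least 1 library of each group.

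**Figure D2:**
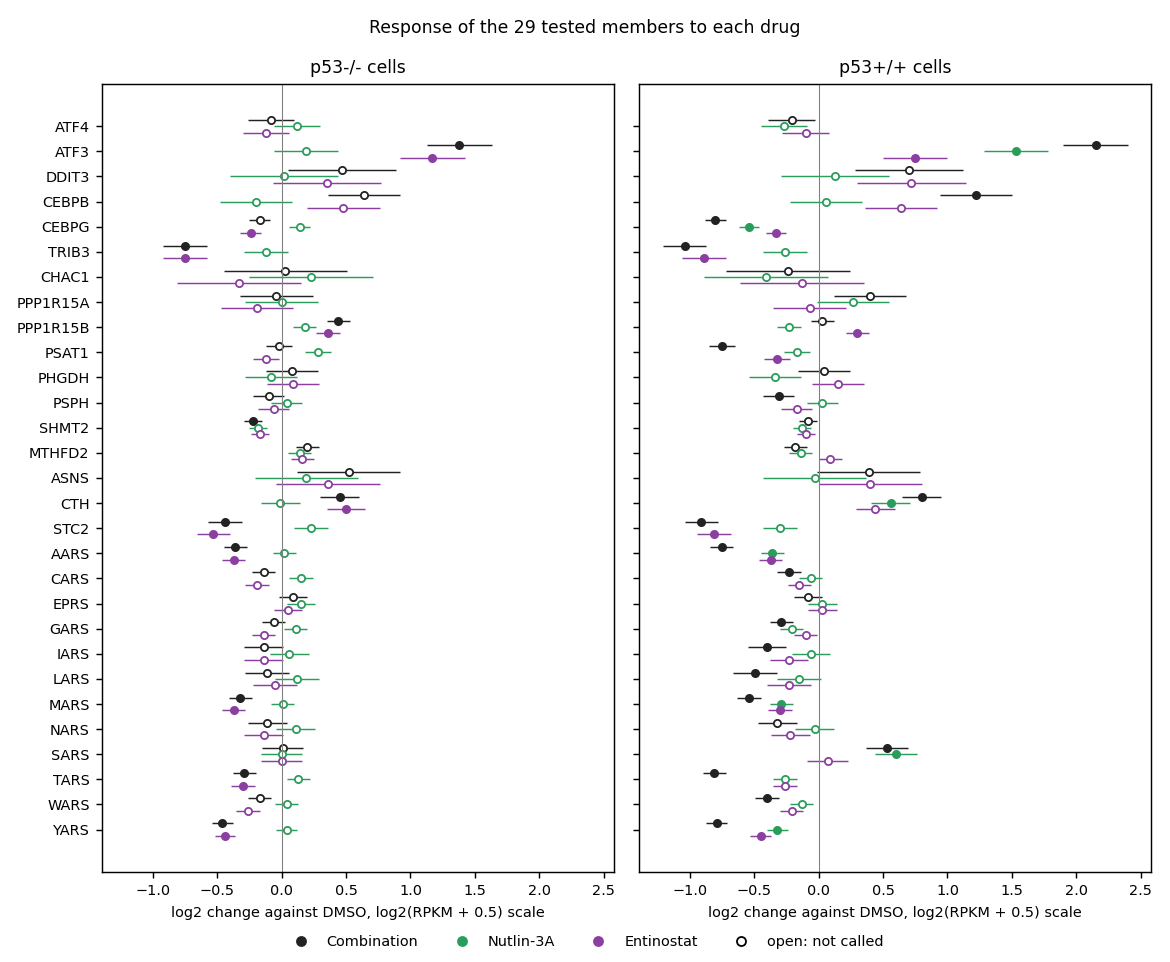
Log2 change against DMSO, on the log2(RPKM + 0.5) scale, of the 29 tested members under the combination, Nutlin-3A and Entinostat in p53-/- cells (left) and p53+/+ cells (right). Points are limma estimates, bars are standard errors, and filled points were called. ATF3 lies far to the right and TRIB3, STC2 and most synthetases to the left in p53+/+ cells under the combination, while all Nutlin-3A points are open in p53-/- cells.

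ATF4, the central transcription factor of the response, was abundant and was not called in any of the comparisons without the block. Its level was 156 and 124 RPKM with the combination, 141 and 126 RPKM with Nutlin-3A, 163 and 138 RPKM with Entinostat, and 172 and 150 RPKM with DMSO in p53+/+ cells, each pair being replicates 1 and 2. Its levels in p53-/- cells were 164 and 122 RPKM with the combination, 183 and 144 RPKM with Nutlin-3A, 153 and 124 RPKM with Entinostat, and 159 and 141 RPKM with DMSO. Drug and DMSO ranges overlapped in p53-/- cells, and in p53+/+ cells both Nutlin-3A values lay below both DMSO values. With the replicate block the Nutlin-3A change of -0.27 in p53+/+ cells was called at an adjusted p of 0.012, as was the combination change of -0.21 (adjusted p = 0.022).

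ATF3, a stress-induced bZIP factor that is also a known p53 target, rose the most. In p53+/+ cells it had 34.8 and 23.1 RPKM with the combination, 20.3 and 16.3 RPKM with Nutlin-3A, 12.3 and 8.75 RPKM with Entinostat, and 6.47 and 5.54 RPKM with DMSO. Every drug library stood above both DMSO libraries, and the combination libraries stood above those of either single drug. The log2 rise was 2.15 ± 0.25 (SE) with the combination (4.82-fold, adjusted p = 7.7e-05), 1.53 ± 0.25 with Nutlin-3A (3.05-fold, adjusted p = 0.0014), and 0.75 ± 0.25 with Entinostat (1.76-fold, adjusted p = 0.045). The Entinostat call was lost without Entinostat replicate 1 or without either DMSO library (adjusted p of 0.093 to 0.31).
Levels of ATF3 in p53-/- cells were 17 and 11.3 RPKM with the combination, 6.34 and 5.31 RPKM with Nutlin-3A, 14.2 and 10 RPKM with Entinostat, and 5.69 and 4.43 RPKM with DMSO. Both groups that received Entinostat lay above DMSO, and the Nutlin-3A pair overlapped the DMSO pair. The log2 rise was 1.38 ± 0.25 with the combination (adjusted p = 0.0026) and 1.17 ± 0.25 with Entinostat (adjusted p = 0.0063), and the Nutlin-3A value was 0.19 ± 0.25. Without Entinostat replicate 1 or DMSO replicate 2 the p53-/- Entinostat call was lost (adjusted p = 0.077 and 0.056).

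CEBPG, a dimer partner of ATF4, moved down in p53+/+ cells. It had 7.9 and 8.21 RPKM with the combination, 9.78 and 9.64 RPKM with Nutlin-3A, 11.1 and 11.6 RPKM with Entinostat, and 15 and 13.8 RPKM with DMSO. The 4 pairs did not overlap, with the combination lowest and DMSO highest. The log2 change was -0.80 ± 0.08 with the combination (adjusted p = 3.7e-05), -0.54 ± 0.08 with Nutlin-3A (adjusted p = 0.00068) and -0.33 ± 0.08 with Entinostat (adjusted p = 0.012). The last of these was lost without Entinostat replicate 1 or DMSO replicate 1 (adjusted p = 0.11 and 0.096). The p53-/- libraries gave CEBPG values of 13.3 and 13 RPKM with the combination, 16.6 and 16.2 RPKM with Nutlin-3A, 11.9 and 13.2 RPKM with Entinostat, and 15.2 and 14.6 RPKM with DMSO. There the Nutlin-3A pair was the highest of the 4, and Entinostat lowered CEBPG by a log2 change of -0.24 (adjusted p = 0.045), a call lost without Entinostat replicate 1 or either DMSO library (adjusted p of 0.1 to 0.31).

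CEBPB, another C/EBP factor that can pair with ATF4, reached 43.9 and 27 RPKM with the combination in p53+/+ cells, against 15.7 and 14.7 RPKM with Nutlin-3A, 25.7 and 20.6 RPKM with Entinostat, and 16.1 and 13.1 RPKM with DMSO. The combination pair was above every other pair of that line, though its replicates differed by more than any other pair of this gene. The log2 rise against DMSO was 1.22 ± 0.28 (2.42-fold, adjusted p = 0.0035). The Entinostat value of 0.64 ± 0.28 was not called, but it was with the replicate block (adjusted p = 0.0013) and in a fit of the compared groups alone (adjusted p = 0.022). Levels of CEBPB in p53-/- cells were 27.9 and 20.7 RPKM with the combination, 16.5 and 10.7 RPKM with Nutlin-3A, 27.2 and 17 RPKM with Entinostat, and 17.2 and 13.6 RPKM with DMSO, and its changes of 0.64 and 0.48 with the combination and Entinostat were called with the block (adjusted p = 0.0013 and 0.0077), the first also in a fit of the compared groups alone (adjusted p = 0.04).

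DDIT3, which encodes the pro-apoptotic factor CHOP, was spread widely between replicates. It had 17.1 and 8.92 RPKM with the combination, 9.6 and 7 RPKM with Nutlin-3A, 16.6 and 9.53 RPKM with Entinostat, and 8.83 and 6.27 RPKM with DMSO in p53+/+ cells. Its levels in p53-/- cells were 20.4 and 11.7 RPKM with the combination, 15.1 and 8.3 RPKM with Nutlin-3A, 19.7 and 10.2 RPKM with Entinostat, and 13 and 9.32 RPKM with DMSO. Replicate 1 was the higher library in each of the 8 groups, and no drug change was called without the block. With the block, the combination and Entinostat values in p53+/+ cells, 0.70 and 0.72 on the log2 scale, had adjusted p of 0.00034 and 0.00063, and in p53-/- cells the values of 0.47 and 0.35 had adjusted p of 0.0077 and 0.035.

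**Figure D3:**
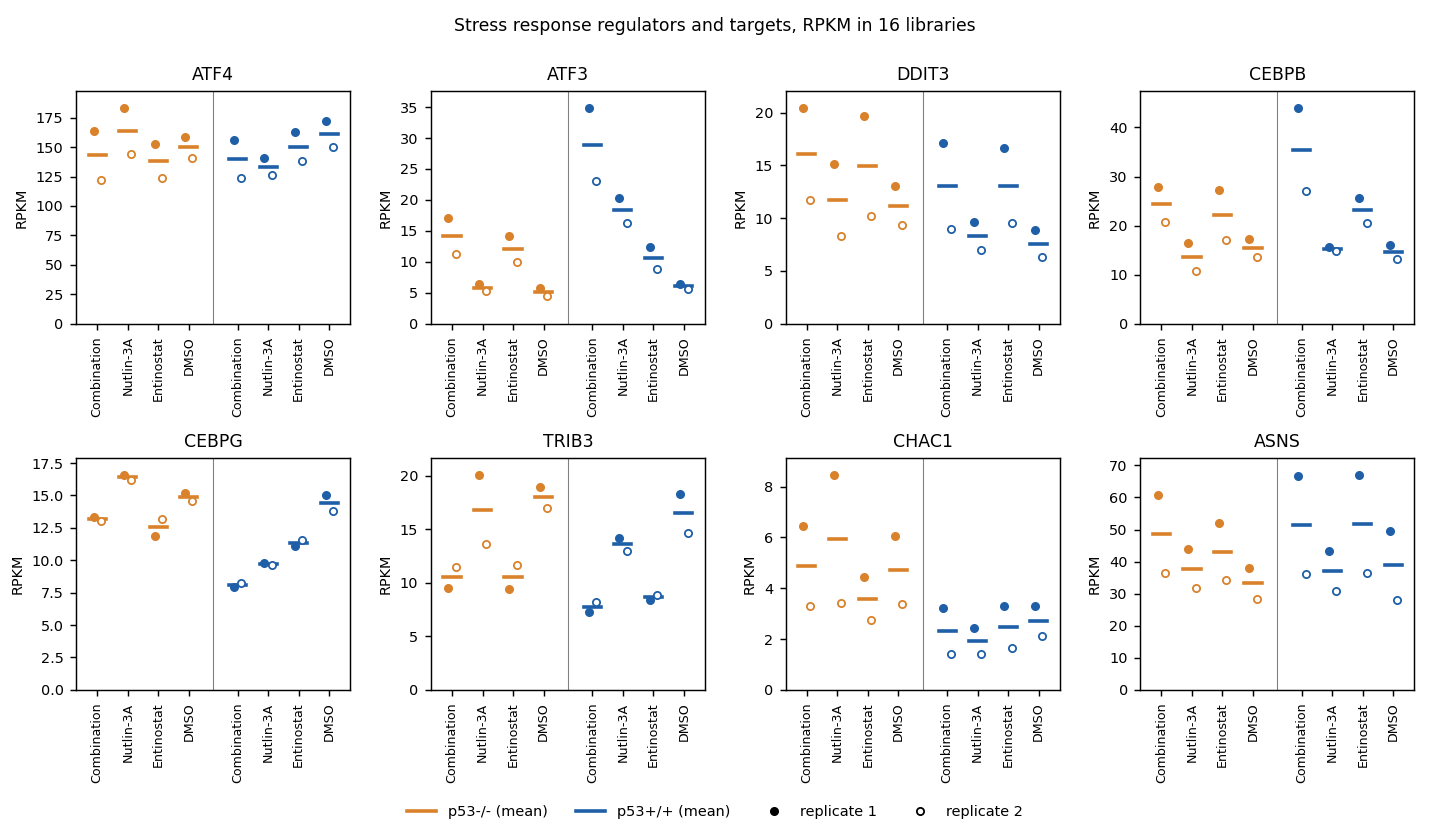
RPKM of ATF4, 4 other transcription factors and 3 genes known to lie downstream of ATF4, in every library, with treatments in p53-/- cells (orange) left of those in p53+/+ cells (blue) and lines for group means. ATF4 stays between 122 and 183 RPKM, whereas ATF3 runs between 4.43 and 34.8 RPKM, and CEBPG and TRIB3 are lowest with the combination in p53+/+ cells.

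Among the genes that feed back on the pathway, TRIB3 fell and PPP1R15B rose with Entinostat. Without the block PPP1R15A and CHAC1 were not called against DMSO. TRIB3, a pseudokinase that binds ATF4 and CHOP, had 7.27 and 8.19 RPKM with the combination, 14.2 and 13 RPKM with Nutlin-3A, 8.37 and 8.91 RPKM with Entinostat, and 18.3 and 14.7 RPKM with DMSO in p53+/+ cells. Libraries of p53-/- cells had 9.52 and 11.5 RPKM with the combination, 20.1 and 13.6 RPKM with Nutlin-3A, 9.44 and 11.7 RPKM with Entinostat, and 19 and 17 RPKM with DMSO. In both lines the libraries that received Entinostat were below those that did not. The log2 change in p53+/+ cells was -1.04 ± 0.17 with the combination (adjusted p = 0.00058) and -0.89 ± 0.17 with Entinostat (adjusted p = 0.0043). Both changes were -0.75 ± 0.17 in p53-/- cells (adjusted p = 0.0078 and 0.0092), and both calls were lost without the drug's replicate 1 or DMSO replicate 1 (adjusted p of 0.053 to 0.099).

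PPP1R15B, the constitutive subunit that directs a phosphatase to eIF2, rose slightly with Entinostat. Its stress-inducible relative PPP1R15A (GADD34) was not called without the block. PPP1R15B had 17.4 and 17.7 RPKM with the combination, 14.2 and 14.9 RPKM with Nutlin-3A, 21.7 and 20.9 RPKM with Entinostat, and 16.9 and 17.4 RPKM with DMSO in p53+/+ cells. Levels in the p53-/- line were 27.9 and 26.5 RPKM with the combination, 21 and 24.6 RPKM with Nutlin-3A, 26 and 25.6 RPKM with Entinostat, and 18.8 and 21.2 RPKM with DMSO. The combination pair thus sat at the DMSO level in p53+/+ cells and above all DMSO libraries in p53-/- cells. The log2 rise with Entinostat was 0.30 ± 0.09 in p53+/+ cells (adjusted p = 0.029), a call lost without any 1 of the 4 libraries (adjusted p of 0.063 to 0.17). The rise in p53-/- cells was 0.36 ± 0.09 with Entinostat (adjusted p = 0.012) and 0.44 ± 0.09 with the combination (adjusted p = 0.0045). The first was lost without Entinostat replicate 1 or DMSO replicate 1 (adjusted p = 0.089 and 0.098), and the second without combination replicate 1 (adjusted p = 0.053). PPP1R15A ranged from 13.6 to 28.2 RPKM over the 16 libraries. Its largest value against DMSO, 0.40 ± 0.28 with the combination in p53+/+ cells, was called with the block (adjusted p = 0.0048). CHAC1, which degrades glutathione, was low at 1.4 to 8.47 RPKM and differed between replicates by up to -1.20 on the log2 scale. No drug comparison of CHAC1 was called without the block, and with it the Nutlin-3A change of -0.41 in p53+/+ cells was (adjusted p = 0.033).

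Of the 5 tested enzymes of serine synthesis and one-carbon metabolism, PSAT1 and PSPH were called lower than DMSO with the combination in p53+/+ cells (2 of 5). Of all genes 26.8% fell in that comparison. PSAT1 was also called lower with Entinostat there (1 of 5, beside 12.4% of all genes). SHMT2 was called lower with the combination in p53-/- cells (1 of 5, beside 14.7% of all genes). Against DMSO 0 were called higher. PSAT1, the transaminase of the serine pathway, had 35.1 and 40.4 RPKM with the combination, 58.8 and 54.7 RPKM with Nutlin-3A, 50.3 and 51.4 RPKM with Entinostat, and 69.3 and 58.6 RPKM with DMSO in p53+/+ cells. The combination libraries were below all others of that line. The log2 change was -0.75 ± 0.10 with the combination (1.69-fold lower, adjusted p = 0.00012) and -0.32 ± 0.10 with Entinostat (adjusted p = 0.027), the Entinostat call being lost without either Entinostat library or DMSO replicate 1 (adjusted p of 0.069 to 0.22). Levels of PSAT1 in p53-/- cells were 59.8 and 62.2 RPKM with the combination, 76.2 and 74.6 RPKM with Nutlin-3A, 54.8 and 58.8 RPKM with Entinostat, and 62.9 and 60.9 RPKM with DMSO, and no drug was called against DMSO.

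PHGDH, the first enzyme of serine synthesis, ranged from 20 to 47.3 RPKM and was not called against DMSO in either line. With the block, Nutlin-3A lowered it in p53+/+ cells by a log2 change of -0.34 (adjusted p = 0.018). PSPH, the last enzyme of that pathway, ranged from 9.77 to 13.3 RPKM and fell by 0.31 on the log2 scale with the combination in p53+/+ cells (adjusted p = 0.048), a call lost without any 1 of its 4 libraries (adjusted p of 0.064 to 0.22). The mitochondrial folate enzymes SHMT2 and MTHFD2 were abundant, at 66.8 to 90.7 and 110 to 170 RPKM. SHMT2 fell by 0.22 on the log2 scale with the combination in p53-/- cells (adjusted p = 0.033), again lost without any 1 library (adjusted p of 0.059 to 0.2). MTHFD2 was not called against DMSO. With the block its combination values of -0.18 in p53+/+ cells and 0.20 in p53-/- cells were called (adjusted p = 0.05 and 0.042), and under quantile normalization its p53-/- values of 0.32 with the combination and 0.27 with Entinostat were (adjusted p = 0.02 and 0.041).

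ALDH1L2, a mitochondrial folate dehydrogenase below the filter, was at 0.404 and 0.295 RPKM with the combination, 0.0793 and 0.0828 RPKM with Nutlin-3A, 0.351 and 0.221 RPKM with Entinostat, and 0.0614 and 0.0737 RPKM with DMSO in p53+/+ cells. The 4 p53+/+ libraries that received Entinostat were the highest of the 16, and p53-/- libraries lay between 0 and 0.0944 RPKM. In a fit with no filter the log2 change in p53+/+ cells was 0.58 ± 0.07 with the combination (adjusted p = 0.00054) and 0.46 ± 0.07 with Entinostat (adjusted p = 0.0051).

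ASNS, which makes asparagine and is a standard ATF4 target, had 66.6 and 36 RPKM with the combination, 43.2 and 30.8 RPKM with Nutlin-3A, 67.1 and 36.5 RPKM with Entinostat, and 49.7 and 27.9 RPKM with DMSO in p53+/+ cells. Its levels in p53-/- cells were 60.8 and 36.5 RPKM with the combination, 43.8 and 31.9 RPKM with Nutlin-3A, 52 and 34.3 RPKM with Entinostat, and 38.1 and 28.3 RPKM with DMSO. The groups overlapped, replicate 1 exceeded replicate 2 throughout, and within each replicate number the combination and Entinostat libraries exceeded the DMSO library. No change was called without the block. With the block the combination and Entinostat changes were called at 0.39 and 0.40 on the log2 scale in p53+/+ cells (adjusted p = 0.0095 and 0.012) and at 0.52 and 0.36 in p53-/- cells (adjusted p = 0.0027 and 0.022).

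The 2 transsulfuration genes, which convert homocysteine to cysteine, were low. CTH, the cystathionine-cleaving enzyme, had 5.87 and 5.32 RPKM with the combination, 4.55 and 4.73 RPKM with Nutlin-3A, 4.69 and 3.79 RPKM with Entinostat, and 3.29 and 2.71 RPKM with DMSO in p53+/+ cells. All drug libraries of that line were above both DMSO libraries. CTH rose by 0.80 ± 0.15 on the log2 scale with the combination (1.87-fold, adjusted p = 0.0012) and by 0.56 ± 0.15 with Nutlin-3A (adjusted p = 0.025). The Nutlin-3A call was lost without either Nutlin-3A library or DMSO replicate 2 (adjusted p of 0.098 to 0.19). The Entinostat value of 0.44 was called without Entinostat replicate 2 (adjusted p = 0.044) and with the block (adjusted p = 0.0039). Levels of CTH in p53-/- cells were 5.9 and 4.52 RPKM with the combination, 3.66 and 3.58 RPKM with Nutlin-3A, 6.04 and 4.82 RPKM with Entinostat, and 3.99 and 3.36 RPKM with DMSO. It rose there by 0.45 with the combination (adjusted p = 0.043) and by 0.50 with Entinostat (adjusted p = 0.028), calls lost without the drug's replicate 1 or DMSO replicate 2 and, for the combination, also without DMSO replicate 1 (adjusted p of 0.059 to 0.34).

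CBS, which forms cystathionine, was below the filter and was seen mainly in 2 groups. It had 0.337 and 0.181 RPKM with the combination, 0.719 and 0.391 RPKM with Nutlin-3A, 0.0147 and 0.026 RPKM with Entinostat, and 0.0443 and 0.0139 RPKM with DMSO in p53+/+ cells, and 0 to 0.0296 RPKM in the p53-/- libraries. The 4 p53+/+ libraries with Nutlin-3A in the medium stood above the other 12. In the fit with no filter Nutlin-3A raised it by 0.98 ± 0.13 on the log2(RPKM + 0.5) scale (adjusted p = 0.0013) and the combination by 0.51 ± 0.13 (adjusted p = 0.013). CBS has a near-identical copy in some genome annotations. The sources used here do not say whether the gene models on hg19 held it, or how reads matching several places were assigned, so its level is uncertain. The same limit applies to members with processed pseudogenes, such as ATF4, PSAT1 and MTHFD2.

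STC2, which encodes the secreted glycoprotein stanniocalcin and is linked to ATF4, had 4.83 and 5.37 RPKM with the combination, 8.2 and 7.89 RPKM with Nutlin-3A, 4.96 and 6.06 RPKM with Entinostat, and 10.6 and 9.43 RPKM with DMSO in p53+/+ cells. Levels in the p53-/- line were 6.45 and 6.53 RPKM with the combination, 12.1 and 9.3 RPKM with Nutlin-3A, 6.2 and 5.99 RPKM with Entinostat, and 9.57 and 8.49 RPKM with DMSO. As for TRIB3, every library with Entinostat in the medium was below every library without it in the same line. The log2 change was -0.91 ± 0.13 with the combination (1.97-fold lower, adjusted p = 0.00024) and -0.81 ± 0.13 with Entinostat (adjusted p = 0.0018) in p53+/+ cells. For the p53-/- line it was -0.44 ± 0.13 (adjusted p = 0.023) and -0.53 ± 0.13 (adjusted p = 0.011). Those p53-/- calls were lost without the drug's replicate 1 or DMSO replicate 1, and the combination call also without combination replicate 2 (adjusted p of 0.063 to 0.14).

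Synthetase genes, whose enzymes attach each amino acid to its tRNA, fell together with the combination in p53+/+ cells. Of the 12 members, 9 fell, 1 rose and 2 were not called, with a median log2 change of -0.40 beside -0.03 over all genes. Of all tested genes 26.8% fell and 23.2% rose in that comparison. Summed over the 12 genes the level was 526 and 578 RPKM with the combination, 669 and 665 RPKM with Nutlin-3A, 616 and 645 RPKM with Entinostat, and 735 and 727 RPKM with DMSO. The combination sums were below all others of that line. The p53-/- sums were 600 and 645 RPKM with the combination, 741 and 747 RPKM with Nutlin-3A, 586 and 636 RPKM with Entinostat, and 694 and 715 RPKM with DMSO. There Entinostat with or without Nutlin-3A gave sums below DMSO, and Nutlin-3A alone gave sums above it.

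AARS, MARS, TARS and YARS, the synthetases for alanine, methionine, threonine and tyrosine, moved most. AARS had 36.5 and 38.9 RPKM with the combination, 49.6 and 50 RPKM with Nutlin-3A, 49.4 and 48.9 RPKM with Entinostat, and 67.4 and 60.5 RPKM with DMSO in p53+/+ cells. MARS had 43.5 and 47.9 RPKM with the combination, 52.3 and 56.1 RPKM with Nutlin-3A, 52.2 and 55.3 RPKM with Entinostat, and 66.4 and 66.6 RPKM with DMSO. In both genes the single drugs gave nearly the same level, between that of the combination and that of DMSO. TARS had 42.6 and 50.2 RPKM with the combination, 70.7 and 64.7 RPKM with Nutlin-3A, 65.5 and 70.2 RPKM with Entinostat, and 82.5 and 80.2 RPKM with DMSO. YARS had 38.1 and 41.5 RPKM with the combination, 56.5 and 54.2 RPKM with Nutlin-3A, 48.6 and 53.1 RPKM with Entinostat, and 70.5 and 68.1 RPKM with DMSO. For all 4 genes, picked here for the size of their change, no library of 1 drug overlapped DMSO or the combination. The share of all genes separated in this way was not counted. Against DMSO the combination changed AARS by -0.75 ± 0.09 (1.7-fold lower, adjusted p = 9.1e-05), MARS by -0.54 ± 0.09 (1.45-fold lower, adjusted p = 0.00051), TARS by -0.81 ± 0.09 (1.75-fold lower, adjusted p = 6.6e-05) and YARS by -0.79 ± 0.08 (1.74-fold lower, adjusted p = 2.9e-05).

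With the single drugs in p53+/+ cells AARS, MARS and YARS were called and TARS was not. Nutlin-3A changed AARS by -0.36 (adjusted p = 0.019), MARS by -0.29 (adjusted p = 0.038) and YARS by -0.32 (adjusted p = 0.012). Each of these calls was lost without at least 1 Nutlin-3A and 1 DMSO library, that of MARS without any of the 4 (adjusted p of 0.056 to 0.21 over the 3 genes). Entinostat changed AARS by -0.37 (adjusted p = 0.012), MARS by -0.30 (adjusted p = 0.024) and YARS by -0.45 (adjusted p = 0.0023). The AARS and MARS calls were lost without Entinostat replicate 1 or DMSO replicate 1, and that of MARS also without DMSO replicate 2 (adjusted p of 0.075 to 0.17). TARS changed by -0.26 with each drug, called with the block (adjusted p = 0.028 for Nutlin-3A and 0.022 for Entinostat).

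In p53-/- cells the same 4 genes, AARS, MARS, TARS and YARS, were the synthetases called, with Entinostat and with the combination. That was 4 of 12 (33.3%) in each, all falls. Of all genes 28.2% were called with Entinostat and 31.8% with the combination, and 13.3% and 14.7% fell. AARS had 51.7 and 49.7 RPKM with the combination, 71.8 and 60.3 RPKM with Nutlin-3A, 49.9 and 50.3 RPKM with Entinostat, and 67.4 and 62.9 RPKM with DMSO. YARS had 49.1 and 50 RPKM with the combination, 72 and 68.9 RPKM with Nutlin-3A, 49.4 and 51.4 RPKM with Entinostat, and 69.5 and 67.5 RPKM with DMSO. The combination and Entinostat pairs were alike and the Nutlin-3A pair was near DMSO. Log2 changes with the combination were -0.36 for AARS, -0.32 for MARS, -0.29 for TARS and -0.46 for YARS, with adjusted p of 0.0015 to 0.029. With Entinostat they were -0.37 for AARS, -0.37 for MARS, -0.30 for TARS and -0.44 for YARS, with adjusted p of 0.0024 to 0.029. Only the YARS calls held with each library left out. For AARS, MARS and TARS the calls were lost without the drug's replicate 1 and without at least 1 DMSO library (adjusted p of 0.054 to 0.21).

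SARS, the serine synthetase, rose with the combination and with Nutlin-3A in p53+/+ cells. Of the other 11 synthetases of the set 9 and 3 fell there, beside 26.8% and 9.5% of all genes. SARS had 46.1 and 37.2 RPKM with the combination, 47.5 and 39.8 RPKM with Nutlin-3A, 32.7 and 27.6 RPKM with Entinostat, and 29.9 and 27.2 RPKM with DMSO in p53+/+ cells. The p53-/- values were 30.9 and 25.8 RPKM with the combination, 30.7 and 25.6 RPKM with Nutlin-3A, 31.2 and 25 RPKM with Entinostat, and 30 and 26.1 RPKM with DMSO. The 4 p53+/+ libraries given Nutlin-3A were the highest of the 16, and the other 12 lay between 25 and 32.7 RPKM. The log2 rise was 0.53 ± 0.16 with the combination (adjusted p = 0.015) and 0.60 ± 0.16 with Nutlin-3A (1.53-fold, adjusted p = 0.02). The combination call was lost without combination replicate 1 or DMSO replicate 2, and the Nutlin-3A call without Nutlin-3A replicate 1 or either DMSO library (adjusted p of 0.059 to 0.17).

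The remaining synthetases changed less. With the combination in p53+/+ cells LARS changed by -0.49, IARS by -0.40, WARS by -0.40, GARS by -0.29 and CARS by -0.23, with adjusted p of 0.0035 to 0.048. WARS had 32.6 and 35.3 RPKM with the combination, 41.5 and 40.5 RPKM with Nutlin-3A, 36.5 and 40.8 RPKM with Entinostat, and 44.1 and 45.7 RPKM with DMSO, with the combination pair lowest. Of these 5 genes WARS alone was called with each library left out, and the others were lost at adjusted p of 0.061 to 0.37. Under quantile normalization CARS, GARS, IARS, LARS and WARS all missed the call, and the value of CARS was -0.02. EPRS, the dual glutamate and proline synthetase, stayed at 50 to 62.9 RPKM and was not called in any comparison without the block. NARS, the synthetase for asparagine, had a value of -0.32 with the combination in p53+/+ cells, called with the block (adjusted p = 0.00099) and without combination replicate 2 (adjusted p = 0.033).

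**Figure D4:**
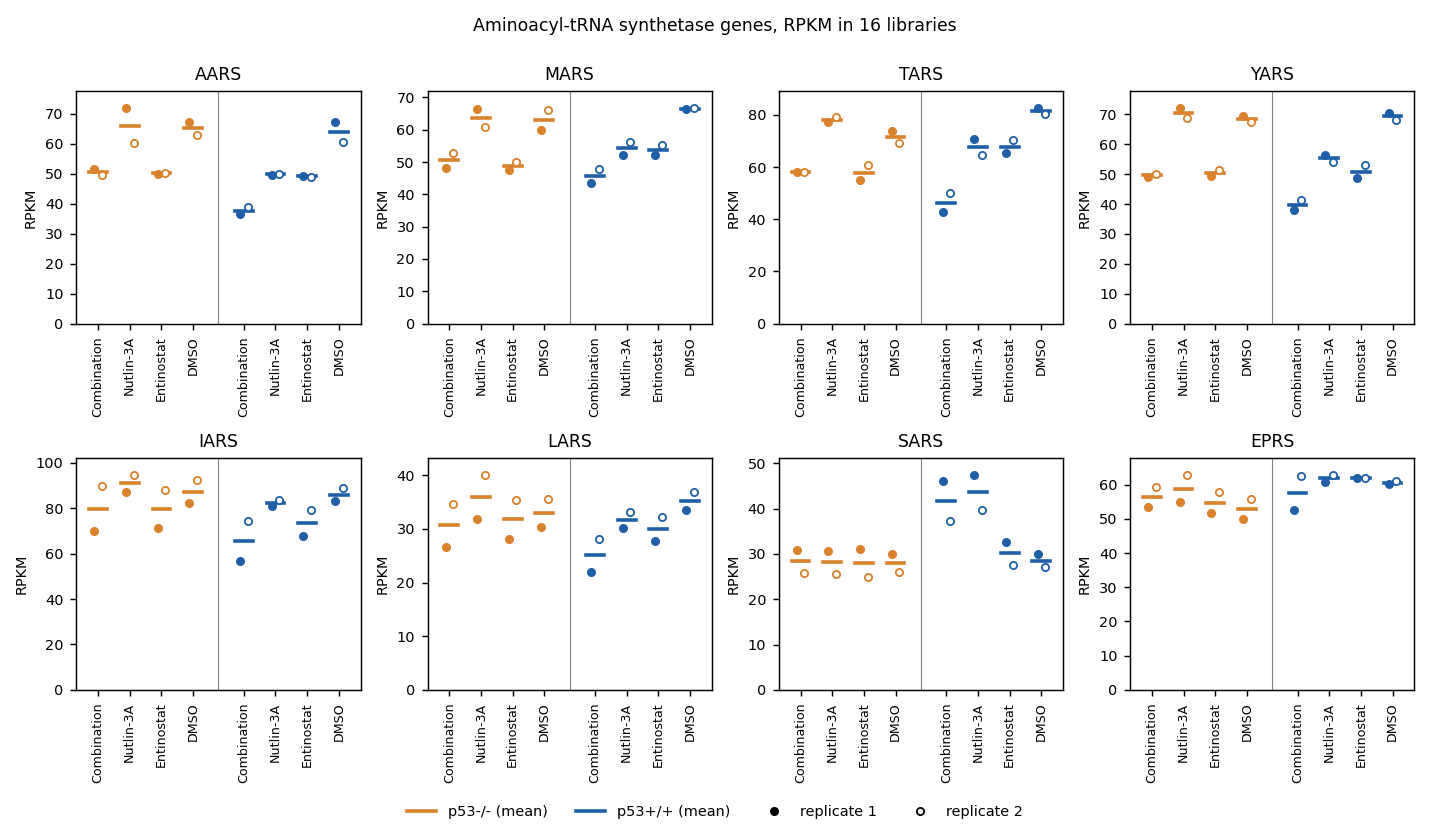
RPKM of 8 cytosolic synthetase genes in every library, with treatments in p53-/- cells (orange) left of those in p53+/+ cells (blue) and lines for group means. AARS, MARS, TARS and YARS are lowest with the combination in p53+/+ cells, SARS is highest in the 4 p53+/+ libraries given Nutlin-3A, and EPRS stays between 50 and 62.9 RPKM.

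Set against each single drug in p53+/+ cells, the combination was called lower for TARS, CEBPG, PSAT1, AARS and YARS. Of these, CEBPG, AARS and YARS had been called lower than DMSO with each single drug, PSAT1 only with Entinostat, and TARS with neither. Against Nutlin-3A the combination raised 2 members and lowered 10, while 34.7% of all genes were called. CEBPB rose by 1.15 (adjusted p = 0.0085) and PPP1R15B by 0.26, and TRIB3 (-0.78), STC2 (-0.61), PSAT1 (-0.58), TARS (-0.54), YARS (-0.47) and AARS (-0.40) were the largest falls. PSAT1, STC2, TARS and YARS were called with each library left out. Against Entinostat it raised ATF3 by 1.41 (2.75-fold, adjusted p = 0.0033) and lowered 5, while 14.8% of all genes were called. The 5 were TARS (-0.55), CEBPG (-0.47), PSAT1 (-0.43), AARS (-0.38) and YARS (-0.35), with adjusted p of 0.0022 to 0.016. ATF3, CEBPG and TARS were called there with each library left out.
With the block the counts were 20 of 29 against Nutlin-3A (52.4% of all genes) and 15 of 29 against Entinostat (31.3% of all genes). The count against Nutlin-3A was 4 without combination replicate 1, 6 without Nutlin-3A replicate 1 and 7 without Nutlin-3A replicate 2. The count against Entinostat was 3 without combination replicate 1 and 3 without Entinostat replicate 2. A fit of the 2 compared groups alone called 6 members against Nutlin-3A and 0 against Entinostat, beside 2305 and 233 of the 12466 tested genes.

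In p53-/- cells members were called with Entinostat and with the combination, at shares near those of all genes, and Nutlin-3A by itself gave no limma call (440 of all genes had an unadjusted p under 0.05). The combination raised ATF3, PPP1R15B and CTH and lowered TRIB3, SHMT2, STC2 and 4 synthetases, 10 of 29 members (34.5%), while 31.8% of all genes were called. Entinostat raised the same 3 genes and lowered CEBPG, TRIB3, STC2 and the 4 synthetases, also 10 of 29 (34.5%), while 28.2% of all genes were called. Nutlin-3A against DMSO called 0 members and 0% of all genes, and 2 members had an unadjusted p under 0.05. The combination against Entinostat likewise called 0 members and 0% of all genes, with 0 members at an unadjusted p under 0.05. Against Nutlin-3A the combination raised ATF3 (1.19), CEBPB (0.83) and CTH (0.46) and lowered 9 members, among them STC2 (-0.67), TRIB3 (-0.63), YARS (-0.50) and TARS (-0.42), while 23.4% of all genes were called. The median member changed by -0.08 with the combination, 0.11 with Nutlin-3A and -0.14 with Entinostat against DMSO.
With the block, 16 members were called for Entinostat (45.5% of all genes) and 20 for the combination against Nutlin-3A (41.2% of all genes). Entinostat calls numbered 1 without Entinostat replicate 1, 4 without DMSO replicate 1 and 5 without DMSO replicate 2. Combination calls against DMSO numbered 2 without combination replicate 1, 4 without DMSO replicate 1, and 6 without combination replicate 2 or DMSO replicate 2. Against Nutlin-3A they numbered 1 without combination replicate 1 and 4 without Nutlin-3A replicate 1.

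Between the lines, members were called with Nutlin-3A and with the combination, at shares near those of all genes. With Nutlin-3A, p53-/- cells had 9 members higher and 3 lower than p53+/+ cells (41.4%), while 34.4% of all genes were called. With the combination 8 were higher and 4 lower (41.4%), while 36.3% of all genes were called. With Entinostat alone 0 members were called beside 3.76% of all genes (6 members at an unadjusted p under 0.05), and with DMSO 0 beside 4.69% (3 members at an unadjusted p under 0.05), by limma. ATF3 was lower in p53-/- cells, with log2 changes of -1.01 ± 0.25 with the combination (adjusted p = 0.0089) and -1.57 ± 0.25 with Nutlin-3A (adjusted p = 0.00055). The combination call was lost without p53+/+ replicate 1 or p53-/- replicate 2 (adjusted p = 0.1 and 0.092). CEBPG was higher in p53-/- cells, by 0.68 with the combination (adjusted p = 0.00011) and 0.73 with Nutlin-3A (adjusted p = 4e-05). PPP1R15B was higher by 0.62 in both (adjusted p = 0.00042 and 0.00028). MTHFD2 was higher by 0.50 with the combination and 0.41 with Nutlin-3A, and SHMT2 was lower, with values of -0.31 and -0.22.

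Other members followed in the same comparisons. PSAT1 was higher in p53-/- cells by 0.69 with the combination (adjusted p = 0.0003) and by 0.41 with Nutlin-3A (adjusted p = 0.006). With the combination AARS was higher by 0.42, GARS by 0.25 and YARS by 0.31, and with Nutlin-3A they were higher by 0.40, 0.34 and 0.34. SARS was lower, at -0.54 with the combination and -0.62 with Nutlin-3A. TARS was higher with the combination (0.33, adjusted p = 0.016), STC2 with Nutlin-3A (0.38, adjusted p = 0.04), and CHAC1 with Nutlin-3A (1.33 ± 0.48, 3.1-fold, adjusted p = 0.049). For CHAC1 the values were 8.47 and 3.41 RPKM in p53-/- cells and 2.43 and 1.4 RPKM in p53+/+ cells with Nutlin-3A, and the call was lost without p53-/- replicate 1 or either p53+/+ library (adjusted p of 0.071 to 0.33). PHGDH was lower in p53-/- cells with the combination, at 29.5 and 23.6 RPKM against 44.7 and 34.6 RPKM in p53+/+ cells (-0.57 ± 0.20, adjusted p = 0.043). That call was lost without p53-/- replicate 2 or p53+/+ replicate 1 (adjusted p = 0.25 and 0.28). With DMSO, PHGDH had 26.1 and 24 RPKM in p53-/- cells and 43.7 and 33.3 RPKM in p53+/+ cells, a difference of -0.60 called with the block (adjusted p = 0.0012).
Under Nutlin-3A the member count was 7 without p53+/+ replicate 2, and ATF3, CEBPG, PPP1R15B, MTHFD2 and YARS were called with each library left out. Under the combination it was 7 without p53+/+ replicate 1 or without p53-/- replicate 2, and CEBPG, PPP1R15B, PSAT1, SHMT2, MTHFD2 and AARS were called throughout. With the block the counts were 20 under the combination (52.9% of all genes), 5 under Entinostat (13.2%) and 3 with DMSO (13.1%). In a fit of the 2 combination groups alone 4 were called, beside 1688 of the 12466 tested genes.

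Whether a drug response differed between the lines was tested by the interaction, the p53-/- response minus the p53+/+ response. For Nutlin-3A 2 members were called, while 6.78% of all genes were. ATF3 had -1.34 ± 0.36 (adjusted p = 0.044) and CEBPG 0.68 ± 0.11 (adjusted p = 0.0039). For the combination 3 members were called, while 5.78% of all genes were. These were PSAT1 at 0.73 ± 0.13 (adjusted p = 0.012), CEBPG at 0.63 ± 0.11 (adjusted p = 0.011) and TARS at 0.51 ± 0.13 (adjusted p = 0.041). For Entinostat 0 members and 0% of all genes were called by limma, and 0 members had an unadjusted p under 0.05. The ATF3 interaction was lost without any 1 of the 8 libraries (adjusted p of 0.061 to 0.17), and that of CEBPG for Nutlin-3A held in all 8. For the combination, CEBPG and PSAT1 were lost without p53+/+ DMSO replicate 1 or p53-/- DMSO replicate 2 (adjusted p of 0.054 to 0.057), which left 0 calls. The TARS interaction was lost without any library but p53+/+ combination replicate 2 (adjusted p of 0.073 to 0.16), and without that library 5 members were called.
With the block, 12 members were called in each of the 2 interactions with calls, against 17.1% of all genes for Nutlin-3A and 23.8% for the combination. The Nutlin-3A interaction then included ATF4 (0.38, adjusted p = 0.019), CTH (-0.57, adjusted p = 0.015), SARS (-0.60, adjusted p = 0.00074), AARS (0.37) and YARS (0.36). The combination interaction then included ATF3 (-0.78, adjusted p = 0.0026), SARS (-0.52, adjusted p = 0.0023), AARS (0.40) and YARS (0.33). In the fit with no filter, the Nutlin-3A interaction of CBS was -1 ± 0.18 (adjusted p = 0.017).

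Other genes of the pathway were described from lists by role. Of 8 tested amino acid transporter genes linked to ATF4, 7 fell and 1 rose with the combination in p53+/+ cells, with a median of -0.64, while 50% of all genes were called. SLC7A11, the cystine importer subunit, changed by -1.10 (2.48-fold lower, adjusted p = 0.0032), SLC7A5, the large neutral amino acid importer, by -0.87 (adjusted p = 0.00013) and SLC6A9 by -0.79, while SLC1A4 rose by 0.89. Nutlin-3A alone lowered 4 of the 8 (median -0.36, with 17.4% of all genes called), led by SLC7A5 at -0.57, and Entinostat lowered 6 and raised SLC1A4 (median -0.43, with 27.5% of all genes called). In p53-/- cells the combination lowered 2 (SLC6A9 and SLC7A1) and raised SLC1A4, 3 of 8 beside 31.8% of all genes. Summed over the 9 listed genes the level was 295 and 310 RPKM with the combination, 386 and 357 RPKM with Nutlin-3A, 352 and 350 RPKM with Entinostat, and 484 and 463 RPKM with DMSO in p53+/+ cells. No drug library of that line reached the DMSO level.

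Synthetases outside the set were called at shares near the 50% of all genes called with the combination in p53+/+ cells. Of 8 further cytosolic synthetase genes, 4 fell and QARS rose (0.42) with the combination in p53+/+ cells, with a median of -0.20, and FARSA, a phenylalanine synthetase subunit, fell the most (-0.50, adjusted p = 0.001). Of 17 mitochondrial synthetase genes, 7 fell and 2 rose (median -0.26), with YARS2 at -0.77 (adjusted p = 0.00019) among the falls and PARS2 and VARS2, both at 0.47, as the rises. In p53-/- cells with the combination, 2 of the 8 (25%) and 4 of the 17 (23.5%) fell and 0 rose. Of all genes 14.7% fell and 17.1% rose there, 31.8% in both directions together.

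With the combination in p53+/+ cells, genes upstream of ATF4 were called at the same share as all genes, but only as falls. Of 12 genes for the eIF2 kinases, eIF2 and eIF2B, 6 fell and 0 rose (median -0.25), that is 50% called beside 50% of all genes. Of all genes 26.8% fell and 23.2% rose. EIF2S2, the beta subunit of eIF2, changed by -0.82 (1.77-fold lower, adjusted p = 4.3e-05), EIF2AK2, which encodes PKR, by -0.65, EIF2B4 by -0.52 and EIF2S1, the subunit that is phosphorylated, by -0.48. EIF2AK4, which encodes GCN2, was lower in p53-/- than in p53+/+ cells under all 4 treatments, with values of -0.88 with the combination (adjusted p = 0.00012), -1.12 with Nutlin-3A (adjusted p = 1.2e-05), -0.81 with Entinostat (adjusted p = 0.00087) and -0.88 with DMSO (adjusted p = 0.00039).

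Among 15 tested genes linked to ATF4 outside the set, 4 rose and 3 fell with Nutlin-3A in p53+/+ cells (median -0.04, with 17.4% of all genes called), and GADD45A, SESN2 and DDIT4 are also known as p53 targets. GADD45A rose by 1.78 (adjusted p = 0.00019), SESN2 by 1.59 (adjusted p = 0.00044), DDIT4 by 1.56 (adjusted p = 0.028) and KLHL24 by 0.75 (adjusted p = 0.0013). With the combination 6 rose and 4 fell (median -0.17, with 50% of all genes called), with DDIT4 at 2.29, GADD45A at 1.55, HERPUD1 at 1.24 and ATF5, a bZIP factor translated like ATF4, at -1.14 (adjusted p = 4.2e-05). Of 10 genes of the unfolded protein response beside PERK, 5 rose and 0 fell with the combination in p53+/+ cells (median 0.24). That was again 50% called beside 50% of all genes, of which 23.2% rose and 26.8% fell. HSPA5, the endoplasmic reticulum chaperone BiP, rose by 1.04 (2.06-fold, adjusted p = 0.00058). HSPA5 rose in p53-/- cells by 0.76 with the combination (adjusted p = 0.0074) and by 0.73 with Entinostat (adjusted p = 0.0098), and SDF2L1, a co-chaperone, fell.

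The replicate number moved with part of the set in every group. Replicate 1 was higher than replicate 2 in all 8 groups for 10 of the 29 tested members (34.5%), against 13.8% of all tested genes. These were ATF4, ATF3, DDIT3, CEBPB, CHAC1, PPP1R15A, PHGDH, ASNS, GARS and SARS. CHAC1 differed by -0.54 to -1.20 on the log2 scale and ASNS by -0.42 to -0.88. IARS, LARS and NARS were higher in replicate 2 in all 8 groups, 10.3% of members against 10.2% of all genes. The calls of DDIT3, ASNS and PPP1R15A that appear with the block and not without it lie among these genes, and what the replicate number stands for is not given in the labels. The groups were balanced over the numbers, so each comparison holds the same number of libraries of each.

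**Figure D5:**
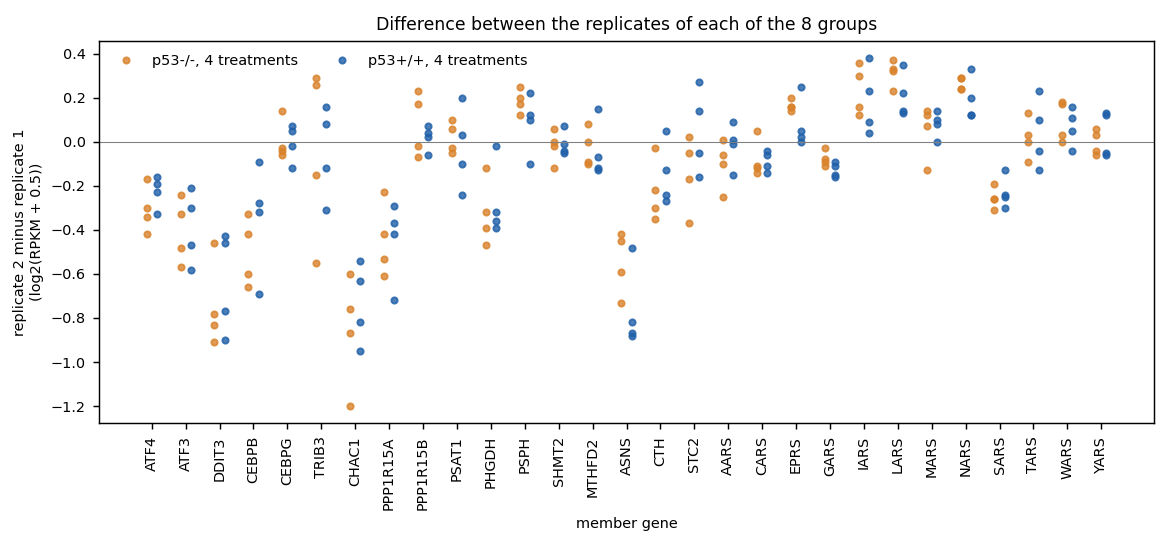
Difference between the 2 replicates of each group on the log2(RPKM + 0.5) scale, replicate 2 minus replicate 1, for the 29 tested members in p53-/- (orange) and p53+/+ (blue) groups. All 8 points lie below 0 for the 10 members that include ATF4, DDIT3, CHAC1 and ASNS, and above 0 for IARS, LARS and NARS.

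The members were also split by the promoter letters. With the combination in p53+/+ cells 0 of 8 members with the C/EBP-ATF core rose and 4 fell (median -0.28), beside 3 risen and 6 fallen of 15 tested members whose window lacked it (median -0.18), while 50% of all genes were called. With Nutlin-3A the medians were -0.15 with the core and -0.14 without it. These are counts over chosen genes with the first listed window of each, and some members without the core there had it in another listed window. The split leaves out ATF3 and AARS, which rose and fell with the combination. No test of the split was made.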

How the data were processed

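RNA levels were read from a table of RPKM that the authors deposited, 1 value per gene and library. The submitters' processing notes name Bowtie2, hg19 and Partek. The sources used here give no versions, gene models, read filters or strand setting. Per the labels' protocols the kit selected polyadenylated RNA and kept its strand. The 16 columns matched the labels by name and 0 columns stayed unmapped.

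Values were taken as log2(RPKM + 0.5) for the 12466 genes (60.5%) with a mean of at least 0.5 RPKM. Means of the 8 groups were fitted over all 16 libraries by limma 3.58.1 (R 4.3.3), with an intensity trend, 8 residual and 4.09 prior degrees of freedom, and Benjamini-Hochberg adjustment over all tested genes in each of 17 comparisons. The model was tested on simulated data drawn independently, with no replicate effect, so that test does not cover pairing by replicate number. The depth limits precision only for low genes, since libraries held 45902800 to 55507300 alignments, and RPKM allow no counting interval here.

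The members and the other lists were chosen with earlier results of these data known. All members could be named, and up to 4 called genes of each other list and comparison, taken by the size of their change. Some items are not reported here.

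Labels give every group replicates 1 and 2. The difference between replicates 2 and 1 correlated across genes in all 28 pairs of groups (r of 0.27 to 0.78, median 0.43). The numbers were therefore taken to pair the samples, but only the fit with the number as a block uses that pairing. The standard errors, p values and missed calls of the main fit leave it out. The block added 96 single calls of members over the comparisons. Only part of these calls are printed, so a member named without a block result may still be called with it. Alternatives were other pseudocounts, filters and scalings, no trend, the compared groups alone, the block, and each library left out.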

Additional observations from a re-analysis of the deposited data

Results flagged for a closer look

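In all, 5 drug responses of members differed between the lines by a test of the difference itself, the p53-/- response minus the p53+/+ response. For Nutlin-3A these were ATF3, at -1.34 on the log2 scale (limma adjusted p = 0.044), and CEBPG, at 0.68 (adjusted p = 0.0039). For the combination they were CEBPG, at 0.63 (adjusted p = 0.011), PSAT1, at 0.73 (adjusted p = 0.012), and TARS, at 0.51 (adjusted p = 0.041). Members called were 6.9% for Nutlin-3A and 10.3% for the combination, beside 6.78% and 5.78% of all genes. In a fit of the compared groups alone 0 members were called for the combination. The combination differences also depended on single libraries, as given above. Without any 1 of the 8 libraries the ATF3 difference missed the threshold, and the CEBPG difference for Nutlin-3A passed in each of those fits. With 2 samples a group no single library could be assessed as standing apart from its group.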

How the results depend on the processing

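Every member kept its direction of change wherever it was called, under every alternative run. Counts of members called moved by over 1.5 times in these cases. With the replicate number as a block they were 13 (Nutlin-3A against DMSO), 18 (Entinostat against DMSO), 20 (combination against Nutlin-3A) and 15 (combination against Entinostat) in p53+/+ cells, and 16 (Entinostat against DMSO) and 20 (combination against Nutlin-3A) in p53-/- cells. For p53-/- against p53+/+ they were 20 with the combination, 5 with Entinostat and 3 with DMSO, and 12 in the interactions for Nutlin-3A and for the combination. No other count of members moved that far with the block, which added 96 single calls and ended 0. In a fit of the compared groups alone the counts were 6 and 0 for the combination against Nutlin-3A and against Entinostat in p53+/+ cells, 6 for Entinostat and 5 for the combination against Nutlin-3A in p53-/- cells, 4 for p53-/- against p53+/+ with the combination, and 0 for the combination interaction. Quantile normalization gave 3 for Nutlin-3A in p53+/+ cells and 6 for both the combination and Entinostat against DMSO in p53-/- cells. Under quantile normalization and in the fits of the compared groups alone, fewer of all genes were called in these comparisons as well. With no filter 2 members, ALDH1L2 and SHMT2, differed between the lines with Entinostat, and with no trend the Nutlin-3A interaction had 1 call. The cause was not tested.

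With 1 library left out in turn, p53+/+ counts against DMSO ran from 13 to 16 for the combination, stayed at 3 for Nutlin-3A, and ran from 3 to 8 for Entinostat. The combination gave 4 to 12 against Nutlin-3A and 3 to 8 against Entinostat there. In p53-/- cells they ran from 2 to 6 for the combination and 1 to 11 for Entinostat against DMSO, and from 1 to 8 for the combination against Nutlin-3A. Between the lines they ran from 7 to 13 with the combination and 7 to 11 with Nutlin-3A, and the interactions gave 0 to 5 for the combination and 1 to 2 for Nutlin-3A. Counts that were 0 stayed 0. A lone library left in a group is assumed to vary like the others. Over all members and comparisons these fits ended 195 calls and added 15, beside 2110 without a change. With 2 libraries a group, small changes such as those of PSPH and SHMT2 against DMSO rest on each library, and a missed call does not show that a gene stayed the same.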
